A study of Mus musculus with 21 samples.

Results

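Actin and tubulin genes were examined probe by probe in Ba/F3, an established line of mouse pro-B cells whose growth needs interleukin 3. A probe was included if the deposited tables named it, in any letter case, for Actb, Actg1, Tuba1a, Tuba1b, Tuba1c, Tuba4a, Tubb5, Pfn1 or Cfl1. This gave 14 probes of 7 of these 9 genes, among the 45281 probes and 30854 target names of the Illumina array: 5 for Actb, 2 each for Pfn1, Tuba1a and Tubb5, and 1 each for Cfl1, Tuba1b and Tuba4a. For Actg1 and Tuba1c 0 probes carried that name, and a probe named with Tuba6, an older symbol of Tuba1c, was not taken. The genes were chosen by name, with measured values in view: the normalized levels of the Actb probes, which disagree between groups, led to the list. Actb is therefore described here with no test, and tests are given for the other genes.

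Cells had been actuated on a digital microfluidic device, where voltages on electrodes move droplets and the cells in them, or had been heated off the device. In batch A, 3 arrays each came from cells actuated continuously for 15 min at 400 Vpp and 18 kHz, from cells actuated for 15 min at 400 Vpp and 1 kHz, and from untreated cells. In batch B, 3 arrays each came from untreated cells and from cells heated for 15 min at 42, 47 or 52 °C. All 7 groups are of the same cell line, with no genetic change named by the labels. Nothing in the labels says that the 3 arrays of a group came from separate cultures, so a p-value here reflects only how these arrays spread, which may be technical.

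Actb encodes beta-actin, the main building block of the actin filaments under the cell membrane. Cofilin-1 (Cfl1) severs and depolymerizes old filaments, and profilin-1 (Pfn1) loads actin monomers with ATP and delivers them to growing ends. Tuba1a, Tuba1b and Tuba4a encode alpha-tubulins and Tubb5 a beta-tubulin, which pair into the dimers of microtubules. Actin and tubulin messages are abundant in most cells, and Actb is widely used to normalize other transcripts.

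Levels are log2 intensities after background removal and quantile normalization within a batch, and intensity means the deposited average bead brightness before any of this. A probe counts as detected on an array where its deposited detection p was below 0.01. The arrays of batch A detected 9420 to 14355 probes and those of batch B 12004 to 13234. The 18 kHz arrays were dimmer than the untreated arrays of batch A: the 95th percentile of intensity was 277.4 to 1110.7 at 18 kHz and 1482.4 to 1524.2 in untreated cells, and the dimmest was 18 kHz replicate 2. The 47 and 52 °C arrays were also dimmer than the untreated arrays of batch B. There the 95th percentile was 861.6 to 1110.4 at 47 °C and 846 to 1082.4 at 52 °C, beside 1255.8 to 1537.2 in untreated cells. At 42 °C it was 997.1 to 1563.7, lowest on replicate 2. Each batch lay on 2 beadchips, and the untreated arrays of batch A all lay on beadchip 2. Of the markers of this line, Il3ra, Csf2rb, Csf2rb2, Ptprc and Cd79b were detected on every array, whereas the pro-B genes Vpreb1, Ebf1, Pax5 and Rag1 were detected on few or none. All 5 fibroblast markers were at background on every array, and of 5 monocyte and macrophage markers Adgre1 was detected on every array, Cd68 on 9 of 9 in batch A and 2 of 12 in batch B, and the other 3 on none. Of 5 T cell markers Cd3d was detected on 3 of 9 and 7 of 12 arrays, Lck on 2 of 9 and 6 of 12, Cd3g on 1 of 9 and 0 of 12, and Cd3e and Cd8a on none.

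The 5 Actb probes covered a wide range of levels. In untreated cells of batch A probe 4640114 averaged 14.13 ± 0.14 and probe 1170372 13.32 ± 0.06, with probe 2480577 at 11.68 ± 0.12 (SD, n = 3 each). Probes 780386 and 2680722 averaged only 7.58 ± 0.39 and 7.38 ± 0.30 there. A probe's brightness also depends on how well it binds, so these levels do not rank transcripts. Probes 780386 and 2480577 are listed with version 1 of the RefSeq record of Actb and the other 3 with version 3, so the dim pair does not share a version.

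At 18 kHz the dim pair of Actb probes stood far above both other groups, while of the brighter probes 1 was lower and 2 were slightly higher than in untreated cells, a sign that turned under median scaling. Probe 780386 was at 11.27, 12.72 and 10.06 at 18 kHz, 8.14, 8.24 and 7.93 at 1 kHz, and 7.21, 7.99 and 7.54 in untreated cells. All 3 arrays at 18 kHz were above all 6 others. The means were 11.35 ± 1.33 at 18 kHz and 7.58 ± 0.39 in untreated cells, a difference of 3.77 or 13.6-fold. It was 3.08 without 18 kHz replicate 2 and 4.41 without replicate 3. Probe 2680722 gave the same picture, with 11.07, 12.66 and 9.86 at 18 kHz, 8.04, 8.12 and 7.80 at 1 kHz, and 7.12, 7.71 and 7.32 in untreated cells. Its difference between 18 kHz and untreated cells was 3.81, or 14.1-fold, and 3.08 and 4.48 without the same replicates.

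The higher signal of the pair was already present in the deposited intensities. Probe 780386 read 1722, 1724 and 1181 at 18 kHz, 483, 580 and 558 at 1 kHz, and 308, 460 and 368 in untreated cells. The mean intensity at 18 kHz was 4.07 times that of untreated cells for probe 780386 and 4.08 times for probe 2680722, although the arrays themselves were dimmer. The same ratio was 0.71 for probe 1170372, 0.32 for probe 2480577 and 0.70 for probe 4640114. Normalization placed 18 kHz replicate 2, the dimmest array, at 12.72 and replicate 1 at 11.27 from intensities of 1724 and 1722. With median scaling in its place the differences were 2.69 and 2.73, against a median of all probes of -1.09.

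The other 3 Actb probes differed in direction at 18 kHz. Probe 2480577 was at 10.90, 10.72 and 11.23 at 18 kHz, 11.32, 11.56 and 11.44 at 1 kHz, and 11.67, 11.57 and 11.80 in untreated cells. It was lower than in untreated cells on all 3 arrays, by a mean difference of -0.73. Under median scaling this was -1.95, which is -0.86 relative to the median of all probes. Probe 1170372 was at 13.78, 14.10 and 13.52 at 18 kHz, 13.28, 13.20 and 13.16 at 1 kHz, and 13.34, 13.25 and 13.38 in untreated cells. Its difference of 0.47 turned to -0.37 under median scaling, which is 0.72 above the median of all probes. Probe 4640114, the brightest, was at 14.28, 14.44 and 14.34 at 18 kHz, 14.03, 14.19 and 13.84 at 1 kHz, and 13.97, 14.25 and 14.17 in untreated cells. Its difference of 0.22 turned to -0.43 under median scaling, 0.66 above the median of all probes.

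All 5 Actb probes had 18 kHz arrays that did not overlap the untreated arrays, where 30.3% of all tested probes showed no overlap. Against 1 kHz the differences at 18 kHz were 3.24 for probe 780386, 3.21 for probe 2680722, 0.58 for probe 1170372, 0.33 for probe 4640114 and -0.49 for probe 2480577. Within beadchip 2, which holds 2 of the 18 kHz arrays and all untreated arrays, the pair differed by 3.81 and 3.88. Between 1 kHz and untreated cells the pair differed by 0.53 and 0.61, and the other 3 by -0.24 to -0.11. Only 2 of the 5 probes had 1 kHz arrays clear of the untreated ones, where 13.3% of all tested probes did. Because the Actb levels led to the list, these overlap counts are described and not read as a result.

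**Figure D1:**
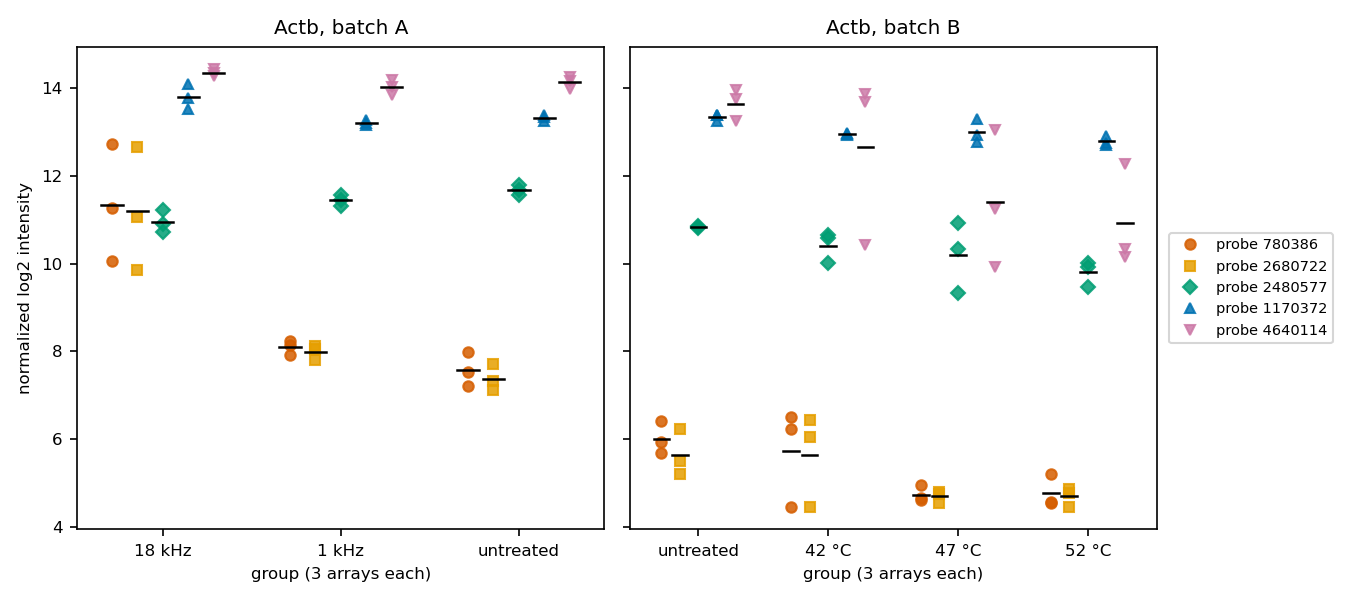
Normalized log2 intensity of the 5 Actb probes on each array of batch A (left) and batch B (right), by group, with 3 arrays a group; points are arrays and black bars are group means. At 18 kHz probes 780386 and 2680722 lie between 9.86 and 12.72, against 7.12 to 7.99 in untreated cells, and in batch B probe 4640114 spreads from 9.91 to 13.96.

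Heating gave another division among the same probes. Probe 4640114, by normalized level the steadiest of the 5 in batch A, became the most variable in batch B. It was at 13.74, 13.24 and 13.96 in untreated cells, 13.67, 10.43 and 13.86 at 42 °C, 9.91, 13.04 and 11.24 at 47 °C, and 12.27, 10.34 and 10.15 at 52 °C. All 3 arrays at 47 °C and at 52 °C lay below all untreated arrays, while at 42 °C only replicate 2 did. The differences from untreated cells were -0.99 at 42 °C, -2.25 at 47 °C and -2.73 at 52 °C.

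The deposited intensities of probe 4640114 showed the same arrays apart, and they carry the lower brightness of the 47 and 52 °C arrays and of 42 °C replicate 2. It read 15360, 11360 and 18906 in untreated cells, 18021, 1353 and 18393 at 42 °C, 896, 6994 and 2592 at 47 °C, and 4735, 1065 and 957 at 52 °C. Each value is a mean over 54 to 92 beads with a standard error of 2.63% to 4.83%, which covers the beads of 1 array and not the spread between samples. Without replicate 2 the difference at 42 °C was 0.12, and without replicate 2 of the 47 °C group the difference at 47 °C was -3.07.

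The 12 arrays of batch B lay on 2 beadchips. On beadchip 1 all heated arrays were low, at 10.43 for 42 °C, 9.91 and 11.24 for 47 °C and 10.15 for 52 °C, beside 13.24 and 13.96 in untreated cells. On beadchip 2 the heated arrays were at 13.67 and 13.86 for 42 °C, 13.04 for 47 °C and 12.27 and 10.34 for 52 °C, beside 13.74 in untreated cells. Within beadchip 1 the differences were -3.17, -3.02 and -3.45 at 42, 47 and 52 °C. Within beadchip 2 they were 0.02, -0.70 and -2.44. At 47 and 52 °C the probe was thus lower within both beadchips, and at 42 °C within beadchip 1. Beadchip 1 holds 1 array at 42 °C and 1 at 52 °C. Beadchip 2 holds 1 untreated array and 1 at 47 °C.

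Probe 1170372 moved far less. It was at 13.38, 13.39 and 13.26 in untreated cells, 12.99, 12.94 and 12.96 at 42 °C, 12.78, 13.30 and 12.93 at 47 °C, and 12.90, 12.76 and 12.71 at 52 °C. The differences were -0.38, -0.34 and -0.55, and the 42 °C and 52 °C arrays did not overlap the untreated ones. Measured within each array, probe 1170372 minus probe 4640114 was -0.30 ± 0.43 in untreated cells, 0.31 ± 1.91 at 42 °C, 1.61 ± 1.31 at 47 °C and 1.87 ± 1.07 at 52 °C.

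Probe 2480577 took a middle course. It was at 10.83, 10.81 and 10.85 in untreated cells, 10.58, 10.01 and 10.65 at 42 °C, 9.34, 10.93 and 10.33 at 47 °C, and 9.93, 9.46 and 10.03 at 52 °C. The differences were -0.42, -0.63 and -1.02, with 1 array at 47 °C above the untreated arrays. At 42 °C replicate 2 and at 47 °C replicate 1 were the lowest arrays of their group for this probe, as they were for probe 4640114.

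The dim pair, which was high at 18 kHz, lay at or near background after heat. Probe 780386 was at 5.68, 5.93 and 6.41 in untreated cells, 6.24, 4.46 and 6.51 at 42 °C, 4.60, 4.95 and 4.67 at 47 °C, and 5.21, 4.55 and 4.56 at 52 °C. Probe 2680722 was at 5.20, 5.50 and 6.24 in untreated cells, 6.06, 4.45 and 6.43 at 42 °C, 4.55, 4.74 and 4.80 at 47 °C, and 4.86, 4.46 and 4.77 at 52 °C. Both were detected on all 3 untreated arrays, on 2 of 3 at 42 °C and on 0 of 3 at 47 and 52 °C.

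Because the pair was not detected at 47 and 52 °C, its change there is only a bound, which holds for the background-corrected scale. The bound sets each heated array at its lowest detected level, or at the probe's own level where that was higher. Probe 780386 was at least 1.59-fold lower at 47 °C and at least 1.7-fold lower at 52 °C than in untreated cells. Probe 2680722 was at least 1.24-fold and at least 1.33-fold lower. Without background correction the measured log2 differences were smaller, at -0.39 and -0.38 for probe 780386 and -0.28 and -0.29 for probe 2680722. At 42 °C, replicate 2 again stood apart, and the difference of probe 2680722 was 0.60 without it.

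All 5 Actb probes had 52 °C arrays that did not overlap the untreated arrays, where 31% of all tested probes showed no overlap. At 47 °C this held for 3 of 5 against 34% of all probes, and at 42 °C for 2 of 5 against 27.2%. In batch B the dim pair passed the detection filter only through untreated and 42 °C arrays. Both its probes are among those counted at 47 and 52 °C. The Actb levels led to the list, so these counts are described and not read as a result.

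**Figure D2:**
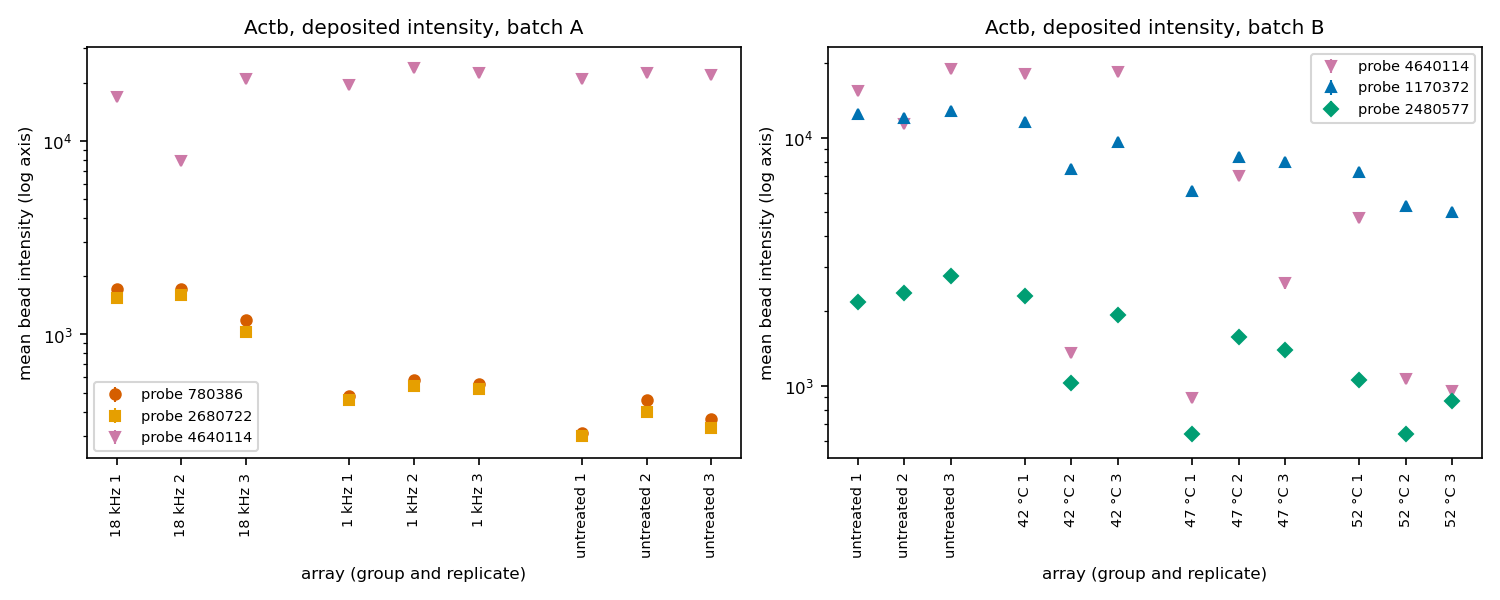
Deposited intensity on a log axis for Actb probes 780386, 2680722 and 4640114 in batch A (left) and 4640114, 1170372 and 2480577 in batch B (right), 1 position per array; error bars are the deposited standard error over beads and are mostly smaller than the symbols. In batch A probe 780386 reads 1181 to 1724 at 18 kHz and 308 to 460 in untreated cells, and in batch B probe 4640114 reads 896 to 6994 at 47 °C beside 11360 to 18906 in untreated cells.

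Both probes of the dim pair were detected on all 9 arrays of batch A, where probe 780386 minus probe 2680722 stayed between 0.06 and 0.28. In batch B both were detected on 5 of 12 arrays, where it lay between 0.08 and 0.48. Probe 780386 minus probe 4640114 was -3.00 ± 1.28 at 18 kHz, -5.92 ± 0.03 at 1 kHz and -6.55 ± 0.26 in untreated cells. The choice of Actb probe therefore set the size of any ratio to Actb. Cfl1 at 18 kHz differed from untreated cells by -5.07 relative to probe 780386, -1.77 relative to probe 1170372, -0.57 relative to probe 2480577, -5.11 relative to probe 2680722 and -1.52 relative to probe 4640114. At 52 °C the difference of Cfl1 ranged from 0.37 relative to probe 1170372 to 2.54 relative to probe 4640114.

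Patterns most like those of the brightest and dimmest Actb probes were sought over all tested probes, by the root mean square gap between mean-centred log2 levels over the arrays of a batch. In batch A the nearest to probe 2680722 was Actb probe 780386, at 0.07, followed among other genes by probes of Golga2 at 0.63, Mcm7 at 0.66 and Prrc2c at 0.66, where the median over all probes was 1.87. Probe 2340441 of Golga2, which encodes a Golgi matrix protein, was at 9.72, 10.12 and 7.70 at 18 kHz and at 6.57, 6.52 and 6.83 in untreated cells. These probes were picked for their likeness to an Actb probe, so their rise at 18 kHz follows from that choice. Other probes of the same genes are given as values only. The other tested probe of Mcm7, a subunit of the replicative helicase, differed by -0.43 at 18 kHz where the nearest probe differed by 2.39. For Prrc2c the 4 other tested probes ranged from 0.15 to 3.49 where the nearest probe differed by 3.51. The brightest probe 4640114 lay closest to Pole3 and Klf7 at 0.06 and Smim11 at 0.07, where the median over all probes was 0.31. Of the other Actb probes, probe 1170372 at 0.20 was the closest. The nearest genes are the least of many distances, so they are not set against the few Actb probes.

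In batch B the brightest Actb probe by its mean was 1170372. Its nearest probes were of Sdhb at 0.08, Ube2g1 at 0.09 and Ppp2cb at 0.10, whereas Actb probe 4640114 lay at 1.39 and the median over all probes was 0.36. The nearest to probe 2680722 was again Actb probe 780386, at 0.20, followed by Rab1b at 0.35, Gnb1l at 0.36 and Snx17 at 0.37, where the median was 0.73. These distances describe 9 and 12 arrays that share groups and beadchips.

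Of the 8 tested probes of the other genes, Cfl1 alone passed the test, in 3 of the 6 comparisons. Its probe 5820392 was at 8.98, 8.78 and 9.39 at 18 kHz, 9.86, 10.05 and 9.95 at 1 kHz, and 10.41, 10.20 and 10.44 in untreated cells. The 3 groups did not overlap, with 18 kHz lowest and untreated cells highest. The means were 9.05 ± 0.31 at 18 kHz, 9.95 ± 0.10 at 1 kHz and 10.35 ± 0.13 in untreated cells. Cfl1 fell at 18 kHz relative to untreated cells by a log2 difference of -1.30 ± 0.16 (SE), or 2.46-fold, with a limma adjusted p of 0.0117. It fell relative to 1 kHz by -0.90 ± 0.16, or 1.87-fold, with a limma adjusted p of 0.0353. The difference of -0.40 between 1 kHz and untreated cells had a limma adjusted p of 1.00. In deposited intensity Cfl1 read 416, 175 and 769 at 18 kHz and 1996, 1710 and 2008 in untreated cells, and these values carry the lower brightness of the 18 kHz arrays. In bulk RNA, fewer cells with the transcript and less transcript per cell cannot be told apart.

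These calls depended on single arrays and on the fit. Against untreated cells, limma's adjusted p was 0.0677 without untreated replicate 1, 0.0748 without untreated replicate 3, and 0.262 within beadchip 2, where the difference was -1.27. Against 1 kHz, leaving out any of the 1 kHz arrays or 18 kHz replicate 1 ended the call, with limma adjusted p values of 0.0820 to 0.150. With the beadchip as a block, limma's adjusted p against 1 kHz was 0.0578, and with the replicate number as a block 0.0581. Without both dimmer 18 kHz arrays, which leaves a single 18 kHz array, the difference from 1 kHz was -0.57.

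After heat Cfl1 fell at 42 °C, and its differences at 47 and 52 °C did not pass the test. It was at 8.69, 8.86 and 8.94 in untreated cells, 8.04, 8.31 and 8.08 at 42 °C, 9.05, 8.84 and 9.11 at 47 °C, and 8.53, 8.79 and 8.62 at 52 °C. The 42 °C arrays lay below all 9 other arrays of the batch. The difference at 42 °C was -0.69 ± 0.14 (SE), or 1.61-fold lower, with a limma adjusted p of 0.0220. At 47 °C the difference was 0.17, with a limma adjusted p of 0.478, and at 52 °C it was -0.18, with 0.404. Under median scaling these were -0.37 and -0.69, beside -0.46 and -0.43 over all probes, and limma called the value at 52 °C with an adjusted p of 0.0261. Whether the change at 42 °C differed from those at 47 and 52 °C was not tested. The call at 42 °C was lost without untreated replicate 2 or 3 or without 42 °C replicate 1 or 3, with limma adjusted p values of 0.0891 to 0.114. Within the beadchips the difference was -0.59 and -0.63. There 1 of the groups is a single array, so these are given as values and the test is not read.

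Of the 9 probes outside Actb, 8 passed the detection filter in each batch. At 18 kHz against untreated cells limma called 1 of these 8, Cfl1, where 3.07% of all 14130 probes were called. Against 1 kHz it called 1 of 8, again Cfl1, where 2.48% were called. At 1 kHz against untreated cells it called 0 of 8, with 1, Cfl1, at an unadjusted p below 0.05, where 0% of all probes were called and 248 had an unadjusted p below 0.05. At 42 °C it called 1 of 8, Cfl1, where 2.41% of 13773 probes were called. At 47 °C it called 0 of 8, where 7.94% were called. There 4 of the 8 had an unadjusted p below 0.05, as did 3556 of all 13773 probes. At 52 °C limma called 0 of 8, where 13% were called. There 1 of the 8 had an unadjusted p below 0.05, as did 4116 of all 13773 probes. Each share rests on 8 probes and is not read as a result about these genes. Without 18 kHz replicate 3, limma also called Pfn1 probe 3800307, Tuba1b and Tuba4a against untreated cells, with adjusted p values of 0.0202, 0.00850 and 0.0388. That leaves only the dimmer 18 kHz arrays, replicates 1 and 2, and Tuba4a was not detected on replicate 2. Without 52 °C replicate 1, it called Pfn1 probe 3800307, Tuba1a probe 3780619 and Tuba1b at 52 °C, with adjusted p values of 0.0271, 0.0470 and 0.0134.

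The median difference of the 8 probes was -0.38 at 18 kHz against untreated cells, beside -0.08 over all probes, and -0.48 against 1 kHz, beside -0.08. It was -0.03 at 1 kHz, and -0.23, -0.12 and -0.20 at 42, 47 and 52 °C, beside 0.00, -0.01 and -0.01 over all probes. Groups did not overlap for 5 of 8 at 18 kHz against untreated cells, where 30.3% of all probes showed no overlap. This held for 4 of 8 at 18 kHz against 1 kHz, beside 28.6% of all probes. At 1 kHz against untreated cells it held for 1 of 8, beside 13.3%. In the heat groups this held for 3 of 8 at 42 °C, 4 of 8 at 47 °C and 1 of 8 at 52 °C, beside 27.2%, 34% and 31% of all probes.

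**Figure D3:**
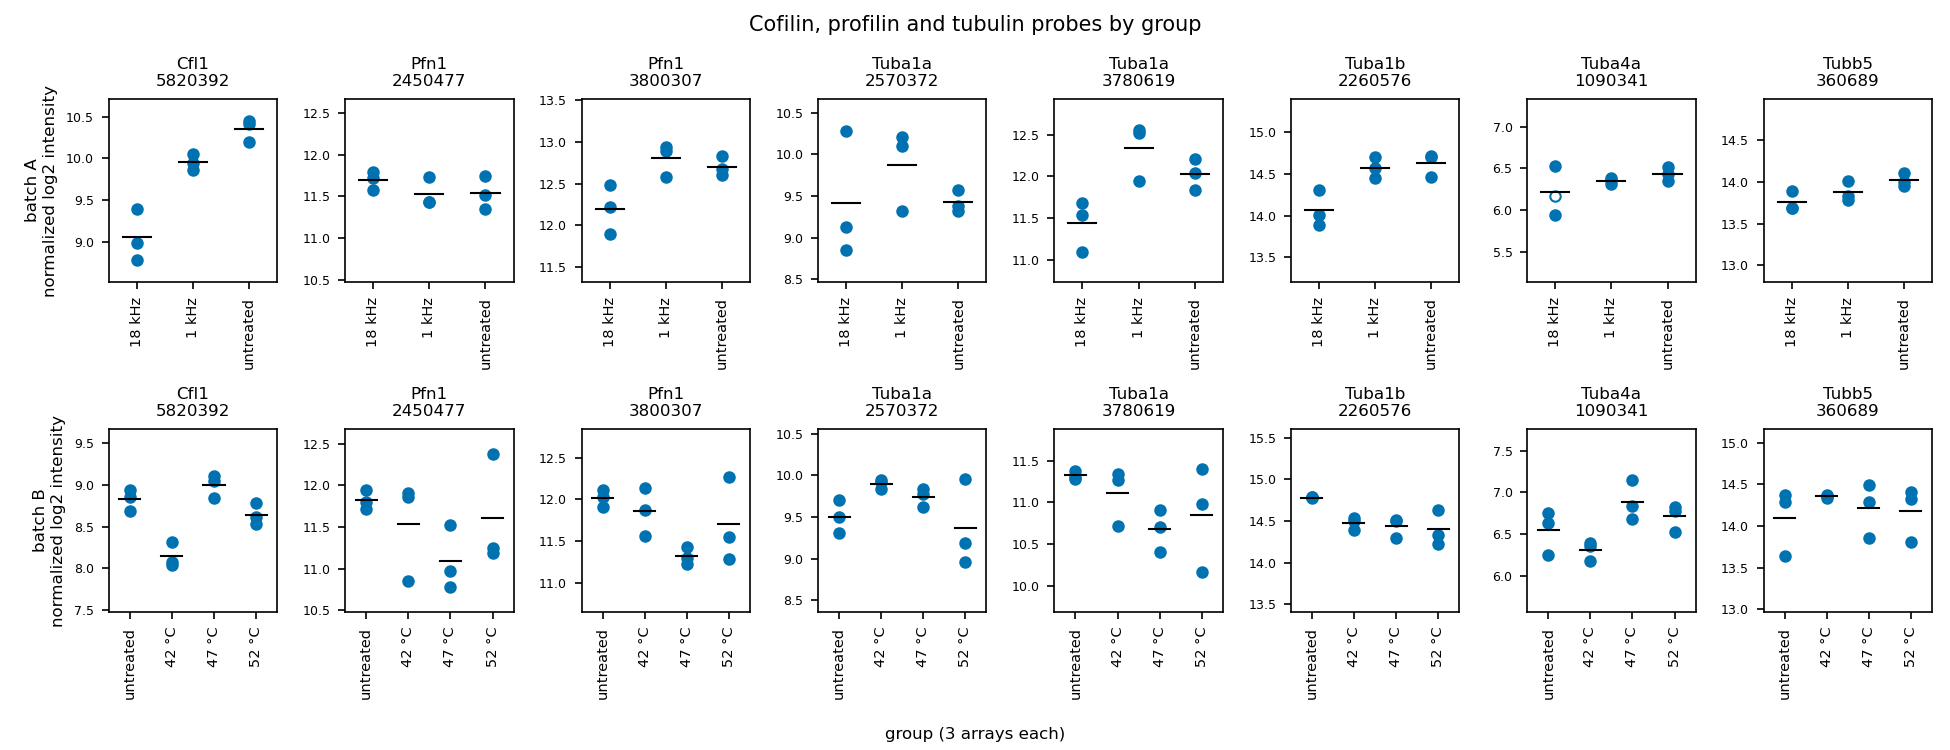
Normalized log2 intensity of the 8 detected probes of Cfl1, Pfn1, Tuba1a, Tuba1b, Tuba4a and Tubb5 by group in batch A (top) and batch B (bottom), 3 arrays a group; points are arrays, an open point is an array where the probe was not detected, bars are means, and each panel spans 2.2 log2 units. Cfl1 lies at 8.78 to 9.39 at 18 kHz and 10.20 to 10.44 in untreated cells.

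The 2 Pfn1 probes differed in the sign of their change at 18 kHz. Probe 2450477 was at 11.79, 11.57 and 11.71 at 18 kHz, 11.43, 11.43 and 11.73 at 1 kHz, and 11.52, 11.35 and 11.74 in untreated cells. Probe 3800307 was at 12.21, 11.89 and 12.49 at 18 kHz, 12.94, 12.58 and 12.89 at 1 kHz, and 12.60, 12.67 and 12.83 in untreated cells. The 18 kHz arrays overlapped the untreated ones for the first probe and lay below them for the second. The differences were 0.16 and -0.50, with limma adjusted p values of 0.484 and 0.111. Under median scaling they were -1.01 and -1.57, beside -1.09 over all probes. Measured within arrays, the first probe minus the second was -0.51 ± 0.24 at 18 kHz, -1.27 ± 0.21 at 1 kHz and -1.17 ± 0.14 in untreated cells.

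In the heat groups the Pfn1 probes kept closer together and were lowest at 47 °C. Probe 2450477 was at 11.80, 11.95 and 11.72 in untreated cells, 11.91, 10.86 and 11.86 at 42 °C, 10.97, 11.52 and 10.78 at 47 °C, and 12.38, 11.25 and 11.19 at 52 °C. Probe 3800307 was at 12.02, 11.91 and 12.11 in untreated cells, 12.14, 11.56 and 11.88 at 42 °C, 11.42, 11.30 and 11.22 at 47 °C, and 12.26, 11.29 and 11.55 at 52 °C. For both, all 47 °C arrays lay below the untreated arrays, and 42 °C replicate 2 and 52 °C replicates 2 and 3 lay below the rest of their groups. The differences at 47 °C were -0.73 and -0.70, with limma adjusted p values of 0.192 and 0.0734.

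The 2 Tuba1a probes also gave unequal differences at 18 kHz. Probe 3780619 was at 11.68, 11.10 and 11.54 at 18 kHz, 12.56, 11.95 and 12.52 at 1 kHz, and 11.84, 12.04 and 12.21 in untreated cells. The 18 kHz arrays lay below both other groups, with a difference of -0.59 from untreated cells (limma adjusted p = 0.122) and -0.90 from 1 kHz (limma adjusted p = 0.0593). Probe 2570372 was at 10.28, 9.13 and 8.84 at 18 kHz, 10.10, 9.32 and 10.20 at 1 kHz, and 9.32, 9.38 and 9.57 in untreated cells. Its 18 kHz arrays lay on both sides of the untreated ones, and the difference was -0.00 with an SE of 0.37.

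After heat probe 2570372 of Tuba1a was at 9.31, 9.50 and 9.70 in untreated cells, 9.92, 9.84 and 9.95 at 42 °C, 9.83, 9.77 and 9.62 at 47 °C, and 9.96, 8.96 and 9.19 at 52 °C. Probe 3780619 was at 11.38, 11.29 and 11.31 in untreated cells, 11.34, 10.72 and 11.27 at 42 °C, 10.71, 10.91 and 10.41 at 47 °C, and 11.40, 10.16 and 10.98 at 52 °C. At 42 °C the first probe lay above all untreated arrays, and at 47 °C the second lay below them all. The differences at 47 °C were 0.24 and -0.65, with limma adjusted p values of 0.516 and 0.154. Within arrays the first probe minus the second was -1.82 ± 0.24 in untreated cells, -1.21 ± 0.29 at 42 °C, -0.93 ± 0.18 at 47 °C and -1.48 ± 0.30 at 52 °C.

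Tuba1b, measured by probe 2260576, varied little within its groups. It was at 13.88, 14.01 and 14.30 at 18 kHz, 14.57, 14.70 and 14.46 at 1 kHz, and 14.72, 14.47 and 14.71 in untreated cells. The 18 kHz arrays lay below all others of the batch, and the difference of -0.57 from untreated cells had a limma adjusted p of 0.0636. Under median scaling the difference was -1.255 (limma adjusted p = 0.0347), which is -0.16 relative to the median of all probes. In batch B it was at 14.78, 14.79 and 14.79 in untreated cells, 14.50, 14.39 and 14.54 at 42 °C, 14.29, 14.52 and 14.51 at 47 °C, and 14.63, 14.23 and 14.34 at 52 °C. Every heated array lay below every untreated array after normalization. In deposited intensity 42 °C replicate 1 read 30469.8, above the 29140.5 of untreated replicate 2. The differences were -0.31, -0.34 and -0.38, with limma adjusted p values of 0.313, 0.137 and 0.0814. Under median scaling they were -0.26, -0.56 and -0.65, beside -0.15, -0.46 and -0.43 over all probes. There limma called the value at 52 °C, with an adjusted p of 0.0343.

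Tubb5 probe 360689 differed by -0.26 at 18 kHz and -0.14 at 1 kHz from untreated cells. Its levels spanned 13.68 to 14.11 in batch A. In batch B they spanned 13.64 to 14.49, and untreated replicate 1 was the lowest array. The other Tubb5 probe, 7100129, was detected on 0 of 21 arrays and read 100.7 to 171.2 in deposited intensity, beside 3796 to 27529 for probe 360689. Tuba4a probe 1090341 was dim, with levels of 5.94 to 6.53 in batch A. In batch B it reached 6.17 to 7.15. It was not detected on 18 kHz replicate 2. Its differences from untreated cells were -0.22 at 18 kHz, -0.08 at 1 kHz, and -0.24, 0.34 and 0.17 at 42, 47 and 52 °C, and limma called none of these.

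**Figure D4:**
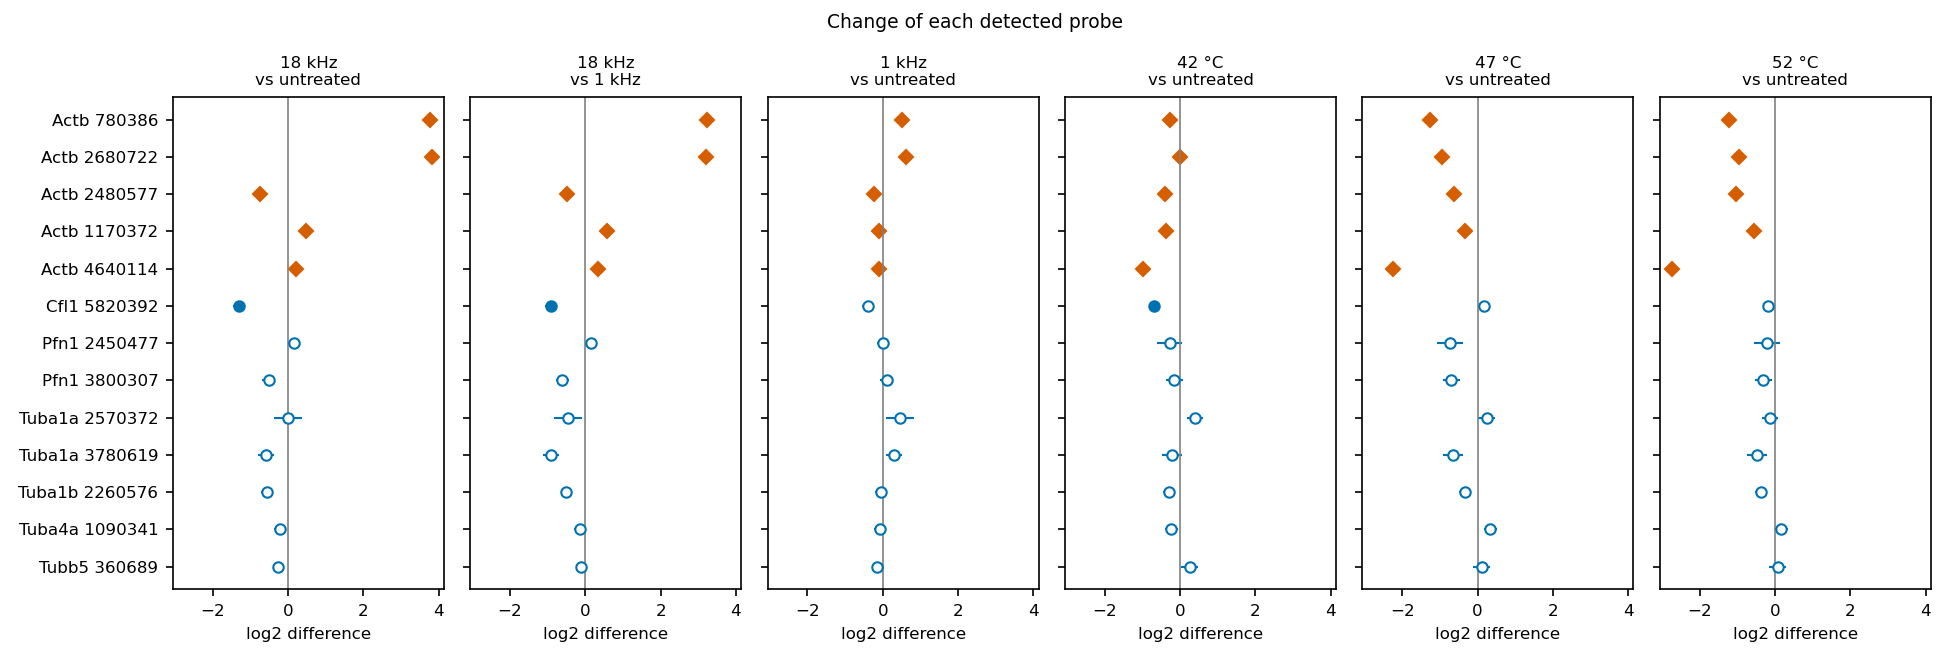
Log2 difference of each of the 13 detected probes in the 6 comparisons; orange diamonds are Actb probes, shown with no test, blue circles are the other genes with the standard error of the limma fit, and filled circles passed an adjusted p of 0.05 (limma). The points of Actb probes 780386 and 2680722 at 47 and 52 °C rest on heated arrays where neither was detected. Actb probes 780386 and 2680722 differ by 3.77 and 3.81 at 18 kHz against untreated cells, Actb probe 4640114 by -2.73 at 52 °C, and Cfl1 is the filled gene in the 2 comparisons of 18 kHz and at 42 °C.

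Other genes of the actin and microtubule systems were read from 6 lists holding 93 genes, with the brightest detected probe of each gene. In batch A 72 were tested and in batch B 73. At 18 kHz 2 of 72 rose and 0 fell relative to untreated cells, where 3.07% of all probes were called, so the count is near the background. Tubb4a, another beta-tubulin, averaged 7.44 ± 0.10 at 18 kHz and 6.70 ± 0.20 in untreated cells (limma adjusted p = 0.0317). Myh9, the heavy chain of non-muscle myosin IIA, averaged 12.15 ± 0.25 at 18 kHz and 11.35 ± 0.10 in untreated cells (limma adjusted p = 0.0311). Both also rose at 18 kHz relative to 1 kHz, by 0.91 and 0.71. Without background correction the difference of Tubb4a was 0.41 against untreated cells and 0.50 against 1 kHz. Under median scaling the signs turned, to -0.38 for Tubb4a and -0.30 for Myh9 against untreated cells, which is 0.71 and 0.79 above the median of all probes, and to -0.27 and -0.38 against 1 kHz. At 1 kHz limma called 0 of 72, with 3 at an unadjusted p below 0.05, where 248 of all 14130 probes were below it. None of the 9 tested genes of the ARP2/3 complex, which starts filament branches, passed the test in batch A, and none of 8 did in batch B, with at most 1 at an unadjusted p below 0.05 in any comparison of batch A and at most 2 in batch B.

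At 52 °C 7 of 73 rose and 1 fell, where 13% of all probes were called. Of 10 other tubulins 3 rose there. Tuba8, an alpha-tubulin, averaged 10.81 ± 0.25 at 52 °C and 9.84 ± 0.13 in untreated cells (limma adjusted p = 0.00279), and its other tested probe differed by 0.90. Tubb4a rose by 0.95 and Tube1, epsilon-tubulin of the centriole, by 0.79. Without background correction these differences were 0.33 and 0.43, and Tubb4a was detected on 2 of 3 untreated arrays. Stmn1, stathmin, which sequesters tubulin dimers, rose by 0.94. Of 25 actin regulators 3 rose and 1 fell at 52 °C. Limk2, a kinase that inactivates cofilin, rose by 0.85, although its other tested probe differed by -0.18. Coro1b and Coro1c, coronins that bind actin filaments, rose by 0.60 and 0.58, and the other tested probe of Coro1b differed by -0.30. Was, which activates the ARP2/3 complex in blood cells, fell with a difference of -0.78.

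At 47 °C 1 of 73 genes of the lists rose and 3 fell, where 7.94% of all probes were called. None of these counts is read as a result about the lists. Limk2 rose by 0.68. Diaph1, a formin that extends filaments, differed by -1.13 (limma adjusted p = 0.0127), and its other tested probe by -0.95. The called probe of Diaph1 differed by -0.52 without background correction. Tpm3, a tropomyosin that coats filaments, and Lcp1, plastin of blood cells, differed by -0.93 and -0.70. At 42 °C only Acta1 of 73, the skeletal muscle actin, was called, where 2.41% of all probes were, at 5.58 ± 0.22 at 42 °C beside 4.65 ± 0.09 in untreated cells. It was detected on 3 of 3 arrays at 42 °C and 0 of 3 in untreated cells, so its change is a bound, at least 1.31-fold higher at 42 °C (limma adjusted p = 0.00511). Without background correction the measured log2 difference was 0.26. The 3 detections at 42 °C are enough to pass the filter. The call of Acta1 is therefore not read as support, here or in the counts below. Of the 17 calls on the lists, 4 held when any 1 array was left out, those of Acta1 at 42 °C and of Tuba8, Limk2 and Stmn1 at 52 °C, and 13 were lost without at least 1 array. Under median scaling 6 of the 17 kept an adjusted p below 0.05 by limma, those of Acta1 at 42 °C, Lcp1, Diaph1 and Tpm3 at 47 °C, and Tubb4a and Was at 52 °C. Of the 7 rises at 52 °C 6 lost their call, with limma adjusted p values of 0.159 for Tuba8, 0.268 for Limk2, 0.201 for Stmn1 and 0.285 for Tube1, and the differences of Coro1b and Coro1c became 0.02 and 0.01. The median over the list genes lay between -0.03 and 0.03 in all 6 comparisons.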

How the data were processed

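Total RNA of 21 samples was measured on Illumina arrays. The authors deposited, for each batch, a GenomeStudio table of average bead intensity, its bead standard error and bead number (counts of beads per probe), and a detection p-value. Per the file headers these intensities were neither normalized nor background-subtracted. The software was GSGX 1.7.0 for batch A and 1.9.0 for batch B, per the file headers. The authors also deposited a log2 table of 40083 probes centred on a median of 0, by a method not given in the sources used here. Of the batch A table, 12 columns of 3 arrays match no sample and were not used.

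The batches were handled separately in R 4.3.3, with limma 3.58.1 for normalization and tests and data.table (version 1.17.8) for reading. A normal-exponential background model fitted from the detection p-values came first, with an offset of 16, then quantile normalization and log2. Quantile normalization gives all arrays of a batch the same distribution. Probes with a detection p below 0.01 on at least 3 arrays were tested, 14130 in batch A and 13773 in batch B, with limma's moderated statistic, two-sided, and Benjamini-Hochberg adjustment over all of them at 0.05. The fits held all groups of the batch, and groups were compared only within a batch, since the batches were normalized separately. The prior degrees of freedom were 2.72 and 4.67. The test was checked on simulated data. The number of arrays limits the precision.

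Gene names are those of the files. Older symbols of list genes were matched through a naming table, and no build or coordinates are given. The genes, the lists and the rule for what is printed (every array for Actb and for called probes, list genes that passed the test, and the 3 nearest probes of other genes) were chosen with earlier results of these data known. Alternative settings covered background correction left out, an offset of 50, median scaling, 21 arrays normalized together, the filter left out or set to every array, a block for beadchip or for replicate number, fits within a beadchip, array weights, the deposited log2 table, and each array left out. Leaving out both dimmer 18 kHz arrays was added after the data were seen.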

Additional observations from a re-analysis of the deposited data

How the results depend on the processing

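Probes called over the array and called outside Actb depended on the settings. For 18 kHz against untreated cells, 434 probes and 1 of 8 were called. These became 1222 and 2 without background correction, 820 and 2 with an offset of 50, 6933 and 5 with median scaling, 1016 and 2 with detection on every array, 3932 and 4 with array weights, and 2451 and 4 in the deposited log2 table. Without a filter 181 probes were called, with the beadchip as a block 184, without both dimmer arrays 93, and within beadchip 2 1 probe and 0 of 8.

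For 18 kHz against 1 kHz, 351 and 1 became 886 and 4 without background correction, 596 and 2 with an offset of 50, 7752 and 5 with median scaling, 1063 and 4 with detection on every array, 3153 and 4 with array weights, 2211 and 4 in the deposited log2 table, and 4446 and 5 within beadchip 1. They became 131 and 0 without a filter, 157 and 0 with the beadchip as a block, 109 and 0 without both dimmer arrays, and 0 and 0 within beadchip 2.

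At 42 °C, 332 and 1 became 1626 probes with array weights, 588 in the deposited log2 table, and 9 and 12 within the beadchips, with 0 of 8 in each. At 47 °C, 1093 and 0 became 4419 and 3 with median scaling, 2787 and 4 with array weights, 1835 and 3 in the deposited log2 table, 536 and 1 within beadchip 1, 0 within beadchip 2, and 645 without a filter. At 52 °C, 1786 and 0 became 4281 and 4 with median scaling, 4763 and 4 with array weights, 2809 and 1 in the deposited log2 table, 756 within beadchip 1 and 9 within beadchip 2. At 47 and 52 °C, 1 of 8 was called without background correction or with an offset of 50. The causes were not tested.

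Leaving out each array gave 26 to 4479 and 0 to 4 for 18 kHz against untreated cells, 12 to 3970 and 0 to 4 against 1 kHz, 0 and 0 at 1 kHz, 152 to 199 and 0 to 1 at 42 °C, 239 to 709 and 0 at 47 °C, and 489 to 3697 and 0 to 3 at 52 °C. The highest counts came without 18 kHz replicate 3 (4479 and 3970) and without 52 °C replicate 1 (3697). Without 18 kHz replicate 3 only the dimmer 18 kHz arrays remain.

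Same-numbered arrays of batch A correlated at -0.23 to 0.46, and those of batch B at -0.43 to 0.16. Of the arrays, 4 of 9 and 5 of 12 were closest to their own number. The pair at 0.46, replicate 1 of 18 kHz and of 1 kHz, also shared a beadchip. These values do not show a pairing by number, and they cannot exclude one. With the replicate number as a block, 195 probes were called for 18 kHz against untreated cells, and 149 and 0 of 8 against 1 kHz, where the adjusted p of Cfl1 was 0.0581.

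Of 861 recomputed values of the 8 probes, 18 lost a call, 67 gained one and 0 reversed a call. Another 46 changed sign with no call in either setting. The values include fits that leave a single array in a group. Median scaling moved the median of all probes by -1.09 at 18 kHz, -1.13 against 1 kHz, and -0.15, -0.46 and -0.43 at 42, 47 and 52 °C. Of the 434 and 351 calls at 18 kHz 184 and 210 were higher, and of the 6933 and 7752 under median scaling 12 and 8. The Actb pair at 18 kHz differed by 2.48 to 4.41 and 2.48 to 4.48 over 18 settings, and probe 4640114 at 52 °C by -3.45 to -2.35.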
